A study of Mus musculus with 22 samples.

Results

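Hearts of vehicle-treated mice were compared between day 28 and day 1 after instillation. The 2 groups were chosen by their titles alone, as control day 28 (6 mice) and control day 1 (5 mice), which makes 11 of the 22 arrays of the series. All mice were wild-type C57BL/6 females, bought at 5 to 7 weeks of age and acclimatised for 1 to 3 weeks. Under injected anaesthesia each vehicle mouse received a single 40 µl instillation into the trachea of saline with 10% cell-free lavage fluid from the lungs of untreated mice, and the heart was taken 1 or 28 days later. The other 11 mice received the same fluid with 162 µg of nanosized titanium dioxide (nano-TiO2) and are used here only for comparison. Vehicle mice were the controls of the study at each time, and the comparison asks how far these controls differed from each other.

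Time since instillation, time since anaesthesia and the age of the mice all differ between day 1 and day 28, and cannot be told apart. RNA of 1 mouse was measured on each array, so replicates are separate mice. Heart RNA was labelled with Cy5 and a reference RNA pooled from 11 mouse cell lines with Cy3, without a dye swap. Each value is therefore the log2 ratio of heart to reference for a gene: a level of 0 means as much signal as in the reference, and a difference of 1 between groups means a factor of 2.

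The heart is built mostly of ventricular muscle, whose cells are packed with mitochondria and burn fatty acids. The atria use their own myosin light chains and hormones, the outer surface is covered by a mesothelium, and fat, large vessels with smooth muscle, nerves and lymph tissue lie at the base of the organ. Fat cells store and release lipids and secrete hormones, and smooth muscle cells hold the tone of vessels with their own actin and myosin. In whole tissue, fewer cells of a type and less RNA per cell cannot be told apart.

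Between 32.7% and 52.8% of the 41174 probes were well above background in Cy5 on the vehicle arrays. The mean was 38.7% ± 5.52 (SD, n = 5) at day 1 and 44.7% ± 6.07 (SD, n = 6) at day 28, a difference of 5.99 percentage points (exact permutation p = 0.128, two-sided). The tissue is given as heart, although lung is the organ named in the text on RNA extraction. Myl2, the ventricular myosin light chain, and the sarcomere genes Myh6, Tnnt2 and Actc1 were well above background on all 11 arrays, and the lung surfactant genes Sftpc and Sftpb on 0 of 11.

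Some arrays stood apart. Cyp2f2, an enzyme of airway club cells, lay at 4.64, 0.40, 0.61, 2.67, 5.31 and -0.17 in day 28 replicates 1 to 6, and was well above background on 0 of 5 day 1 arrays. Scgb1a1, the secretory protein of the same cells, reached 3.94 and 3.54 in day 28 replicates 1 and 5. Alb, the albumin of liver, lay at 2.37, 2.65, 2.12, 2.63 and 1.24 at day 1 and at 5.20, 0.00910, 3.59, 5.28, 2.07 and -0.0492 at day 28, highest in replicates 1 and 4. The liver list (16 genes) had a mean per mouse, relative to all vehicle mice, of -1.01 to -0.53 at day 1 and -1.17 to 2.52 at day 28, and the lung epithelium list (7 genes) of -0.65 to -0.24 at day 1 and -0.54 to 1.96 at day 28. At day 1, Sln, a regulator of the calcium pump in atrial muscle, lay at 5.95, 0.13, 6.74, 3.45 and 7.55, lowest in replicates 2 and 4. Results are therefore also given without day 28 replicates 1, 4 and 5, called below the arrays with airway or liver transcripts, and without day 1 replicates 2 and 4, the arrays low in atrial transcripts. The first rule took arrays with Cyp2f2 above 2 or Alb above 4, and the second those with Sln under 5. Both were set after these values were seen, and the part of these transcripts in the results was not tested otherwise.

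Vehicle hearts differed widely between the 2 days. Among the 15504 genes tested limma called 1610 (10.4%) at an adjusted p under 0.05, 1073 higher at day 28 (6.92%) and 537 lower (3.46%), which makes 66.6% of the calls higher. Other scalings moved that share, to 47.3% in the scanner software's own log ratios, 50.6% with the Cy5 channel alone and 100% with median centring. The rises were larger than the falls: 232 genes rose at least 2-fold, while 1 gene, a cDNA clone without a symbol, fell at least 2-fold. Called rises had a median difference of 0.60 in log2 and called falls of -0.39, against -0.00327 over all genes. In 719 genes (4.64%) every day 28 mouse lay above every day 1 mouse, and in 370 (2.39%) below, 7.02% in all. The plot of all genes shows this lopsided shape.

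**Figure D1:**
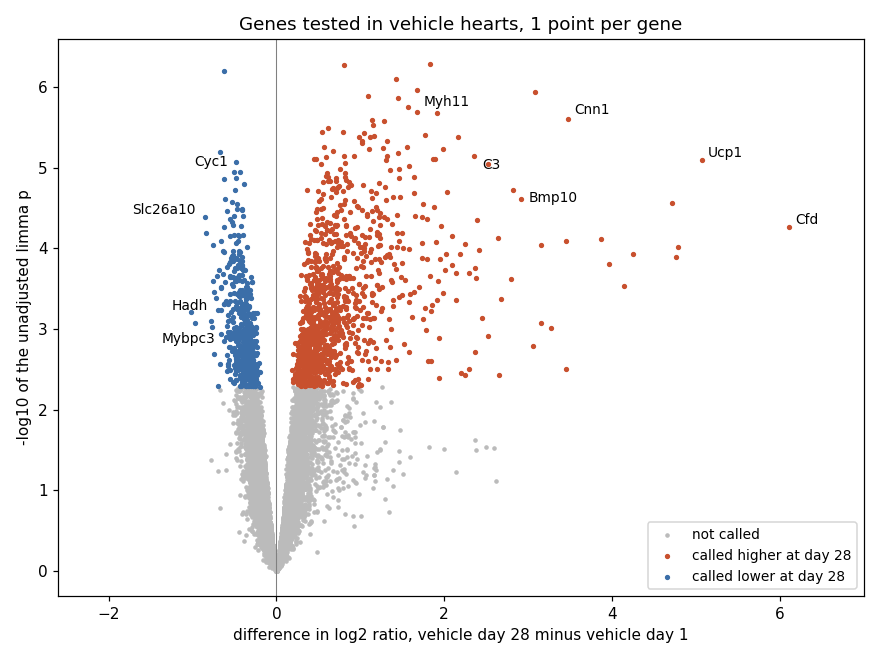
Each point is 1 of the 15504 genes tested. The horizontal axis is the difference in log2 ratio, vehicle day 28 minus day 1, and the vertical axis is -log10 of the unadjusted limma p. The 1073 genes called higher reach 6.11, and the 537 called lower go no further than -1.02.

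The number of calls depended on the mice included and on the array slide. It was 32 without the arrays with airway or liver transcripts, which leaves 3 mice against 5, and 242 without those low in atrial transcripts. It was 948 without day 1 replicate 2, 953 without day 28 replicate 4 and 1064 without day 28 replicate 5, and lower calls alone were 353 without day 1 replicate 1 and 337 without day 28 replicate 2. Of 170 called genes named here 116 were called with each mouse left out in turn, and 54 lost the call at least once. With slide as a fixed block it was 0 (2807 genes at an unadjusted p under 0.05), where only 3 of 9 slides held both vehicle groups. With slide as a random block it was 1628, and with scan day as a block 1930. Directions moved less: 1610 of the 1610 called genes kept their sign with slide as a fixed block, which reuses the same arrays.

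Fat cell genes showed the largest rises. Of 16 measured adipocyte markers 9 rose and 1 fell, against 6.92% and 3.46% of all genes, with a median difference of 2.68 in log2. Cfd (adipsin or complement factor D, secreted by fat cells) rose by 6.11 ± 1.23 (SE), or 69.2-fold (adjusted p = 0.00496). Its level was 0.37, 0.67, 0.98, 0.81 and 5.04 at day 1 and 8.68, 7.58, 7.35, 7.26, 8.82 and 6.42 at day 28, so that day 1 replicate 5 stood closest to the day 28 mice and no mouse overlapped. Ucp1, the uncoupling protein by which brown fat makes heat, lay at -0.0435, 0.11, -0.0681, 0.19 and 0.00695 at day 1 and was well above background on 0 of 5 arrays. At day 28 it lay at 6.45, 5.57, 4.39, 4.84, 5.86 and 3.56, well above background in all 6 mice. It was at least 26.3-fold higher at day 28 (adjusted p = 0.00268). Such a bound sets the mean normalised Cy5 signal of the bright group against the lowest signal counted as above background, and is open to dye bias.

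Adipoq, the fat cell hormone adiponectin, lay at 0.13, -0.15, 0.0438, -0.14 and 1.98 at day 1 and at 6.71, 5.22, 4.61, 4.79, 6.65 and 2.99 at day 28, and rose by 4.79 ± 1.01 (SE; adjusted p = 0.00607). At day 1 it was well above background in replicate 5 alone. The lipid droplet proteins Cidec and Plin1 rose by 4.77 ± 1.03 and 3.96 ± 0.87, and Car3, a carbonic anhydrase abundant in fat, by 4.25 ± 0.91. The lipid-synthesis enzymes Fasn and Scd1 rose by 3.28 ± 0.86 (5 of the 6 day 28 mice had a usable Fasn spot, and its other probe gave 1.97) and 3.06 ± 0.85. Their highest adjusted p with 1 mouse left out was 0.0535 for Fasn (without day 28 replicate 5) and 0.0594 for Scd1 (without day 28 replicate 4). Retn, the hormone resistin, was above background on 0 of 5 day 1 arrays and was at least 3.96-fold higher at day 28. The member that fell was Lpl, lipoprotein lipase, which heart muscle also makes, at -0.54 ± 0.15. Fabp4, a fatty acid carrier that endothelial cells also express, did not pass (0.11 ± 0.14, and -0.0897 and 0.47 on its other probes). Lipe (0.18, and 0.46 on its other probe), Pparg and Cidea did not pass either. Of 8 brown fat markers, which share Ucp1 and Cidea with the first list, Dio2, the enzyme that activates thyroid hormone, rose by 1.21 ± 0.27, while Cox8b, Cox7a1, Ppargc1a and Fabp3, all abundant in heart muscle, fell. These 4 falls were 2 without day 1 replicate 4 or day 28 replicate 1 and 1 without day 28 replicate 2.

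The adipocyte median was 2.55, 3.17 and 2.24 within the 3 scan days and 3.72, 2.14 and 4.13 within the 3 shared slides. Without the arrays with airway or liver transcripts it was 1.65, with 0 members called, and the adjusted p of Ucp1 was 0.0665. With slide as a block the median was 2.85, with 0 called. Here and below, each shared slide held only 1 day 1 mouse and 1 day 28 mouse, and each scan day 1 or 2 mice of each day. The first shared slide held day 28 replicate 5, and the third held day 1 replicate 2 and day 28 replicate 1, all arrays set apart above.

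Genes of the atria were also higher at day 28. Of 11 measured members 6 rose, 0 fell and all 11 had a positive difference, with a median of 2.39. Bmp10, a secreted signal of right atrial muscle, lay at -0.00859, 0.31, 0.20, 0.21 and -0.0382 at day 1, above background on 0 of 5 arrays. It lay at 2.17, 3.67, 3.08, 3.95, 2.89 and 2.54 at day 28, above background on 6 of 6, and was at least 5.92-fold higher (adjusted p = 0.00376). Dkk3, a secreted glycoprotein of the Dickkopf family, rose by 3.45 ± 0.72 (SE), Fgf12, which binds sodium channels, by 3.15 ± 0.66 (0.68 on its other probe), and Hamp, the iron hormone hepcidin, by 2.39 ± 0.47. Stard10, a lipid transfer protein, rose by 2.25 ± 0.47 and Pam, an enzyme that amidates peptide hormones, by 1.37 ± 0.31. Mybphl and Gja5 are not in the list. Mybphl, a relative of myosin binding protein C in atrial muscle, rose by 3.45 ± 1.04 (adjusted p = 0.0364). With 1 mouse left out its limma adjusted p was up to 0.109, without day 1 replicate 2. Gja5, connexin 40 of atria, conduction fibres and arteries, ran from 1.15 to 2.13 at day 1 and from 3.46 to 4.70 at day 28 and rose by 2.42 ± 0.51, while its other probe, above background on 0 of 5 day 1 arrays, differed by 0.0993.

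The atrial muscle proteins themselves were uneven. Myl7, the atrial regulatory light chain, lay at 6.35, 2.02, 6.86, 4.23 and 7.48 at day 1 and at 7.34, 7.49, 7.77, 7.78, 7.32 and 7.45 at day 28. Its difference of 2.14 ± 1.08 did not pass (adjusted p = 0.22). Day 1 replicate 5 lay among the day 28 mice, and replicates 2 and 4 lay lowest. Myl4 and Sln followed the same order of mice, with 2.59 ± 1.12 and 2.62 ± 1.41, and did not pass. Nppa, the atrial natriuretic peptide, differed by 0.0318 ± 0.13, and its other probe by 0.65. The 6 day 28 hearts lay within 7.32 to 7.78 for Myl7, while the day 1 hearts spanned 2.02 to 7.48. Myl7 and Retn, like Fabp4 and the other members named as not passing, were named after their values were seen.

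Without the day 1 arrays low in atrial transcripts the atrial median was 1.22, with 2 members called, and the adjusted p of Bmp10 was 0.0323. The median was 1.28, 2.77 and 1.71 within the 3 scan days and 1.28, 1.18 and 2.56 within the 3 shared slides.

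**Figure D2:**
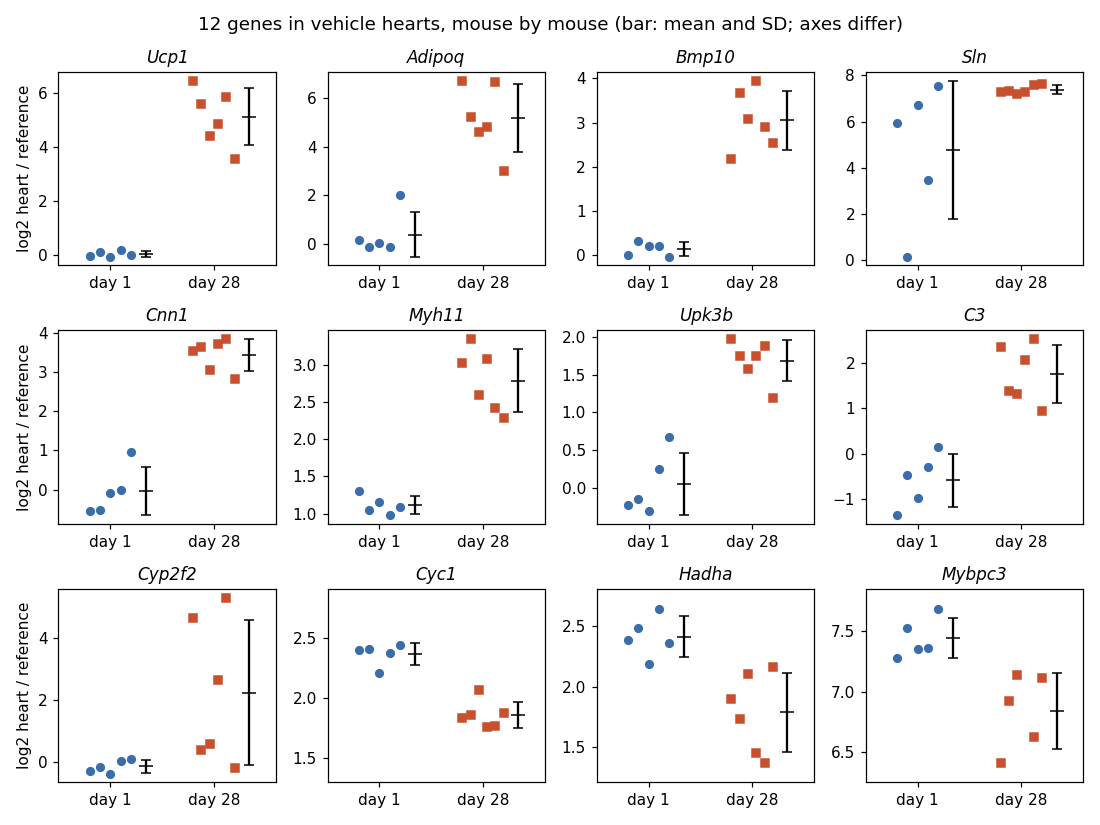
The log2 ratio of heart to reference in each of the 11 vehicle mice for 12 genes, with circles for day 1 (5 mice), squares for day 28 (6 mice) and a bar for the mean and SD. The vertical axes differ between genes. Ucp1 and Bmp10 lie near 0 in every day 1 mouse, Sln spans 0.13 to 7.55 at day 1, and Cyp2f2 reaches 4.64 and 5.31 in single day 28 mice.

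Most contractile genes of smooth muscle were higher at day 28. Of 12 markers 7 rose and 2 fell (median 0.57). Cnn1, a calponin that binds actin in smooth muscle, lay at -0.54, -0.53, -0.0804, -0.00686 and 0.97 at day 1 and at 3.54, 3.65, 3.07, 3.73, 3.84 and 2.83 at day 28, and rose by 3.48 ± 0.55 (SE), or 11.1-fold (adjusted p = 0.00268). Myh11, the smooth muscle myosin heavy chain, lay at 1.31, 1.05, 1.16, 0.98 and 1.09 and then at 3.02, 3.35, 2.60, 3.08, 2.42 and 2.28, a rise of 1.68 ± 0.26 (adjusted p = 0.00268). The groups did not overlap in either gene, and in both the SD was smaller than the rise. Tagln, an actin-bundling protein, rose by 2.52 ± 0.44 (1.497 on its other probe), the actin nucleator Lmod1 by 1.92 ± 0.30, the myosin kinase Mylk by 0.93 ± 0.16 and Acta2, smooth muscle actin, by 0.76 ± 0.22 (0.73 and 0.0158 on its other probes). Itga8, an integrin chain of smooth muscle and related cells that is not in the list, rose by 3.08 ± 0.47 (8.46-fold). The members that fell were Pln (-0.57 ± 0.14), the calcium pump inhibitor, and Des (-0.37 ± 0.12), the intermediate filament desmin, both of which heart muscle makes in large amounts. The other 3 members did not pass. Tagln, Acta2 and Des were named after their values were seen.

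The smooth muscle median was 0.52, 0.42 and 0.72 within the 3 scan days and 0.81, 0.42 and 0.43 within the 3 shared slides. When the arrays with airway or liver transcripts were left out it was 0.49, and 1 member, Myh11 (1.63, adjusted p = 0.0496), was called. Without the arrays low in atrial transcripts 5 were called.

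All 11 measured genes of the mesothelium list, which shares C3 with the complement list below, rose, with a median of 1.19. Lrrn4, a surface protein of mesothelial cells, lay at -0.60, -0.35, -0.60, -0.12 and 0.12 at day 1 and at 1.68, 0.67, 1.12, 1.53, 1.68 and 0.87 at day 28, and rose by 1.57 ± 0.24 (SE; adjusted p = 0.00268). Gpm6a, a membrane glycoprotein, rose by 1.99 ± 0.34, the uroplakin gene Upk3b by 1.64 ± 0.29 and Msln, mesothelin, by 1.58 ± 0.34. Wt1, the transcription factor of epicardium and mesothelium, lay at -0.22, -0.27, -0.0995, -0.0376 and 0.0267 and then at 0.73, 0.66, 0.31, 0.49, 0.74 and 0.41, a smaller rise of 0.68 ± 0.11 with no overlap. The simple-epithelium keratins Krt8, Krt18 and Krt19 stayed below the reference in all mice and rose by 0.93, 1.14 and 1.19. Upk3b, Msln and the keratins were named after their values were seen. The list median was 1.38, 1.61 and 0.99 within the 3 scan days and 1.30, 1.38 and 1.62 within the 3 shared slides, and 1.06 without the arrays with airway or liver transcripts, where 0 members were called.

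Nerve and Schwann cell genes gave 4 rises among 5 measured (median 1.32). Mbp, the myelin basic protein, rose by 1.46 ± 0.26 (SE), S100b, a calcium-binding protein of glia, by 1.32 ± 0.26 and the potassium channel Kcna1 by 1.32 ± 0.28. Mbp ran from -1.5 to -0.44 at day 1 and from 0.14 to 0.94 at day 28, without overlap, and its other probe, above background on 0 of 5 day 1 arrays, gave 0.23. Of 16 endothelial markers 2 rose and 1 fell, against 6.92% and 3.46% of all genes, with a median of 0.0968. The fenestral protein Plvap (1.26 ± 0.31) and von Willebrand factor Vwf (0.82 ± 0.23) rose, and the apelin receptor Aplnr (-0.76 ± 0.16) fell. In the list of angiotensin, endothelin and nitric oxide genes Npr3, the clearance receptor of natriuretic peptides, rose by 1.5 ± 0.32 (0.55 and 0.49 on its other probes) and Ece1, which makes endothelin, by 0.64 ± 0.13, among 4 rises of 17, a count that was 2 without day 1 replicate 2 or day 28 replicate 4.

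**Figure D3:**
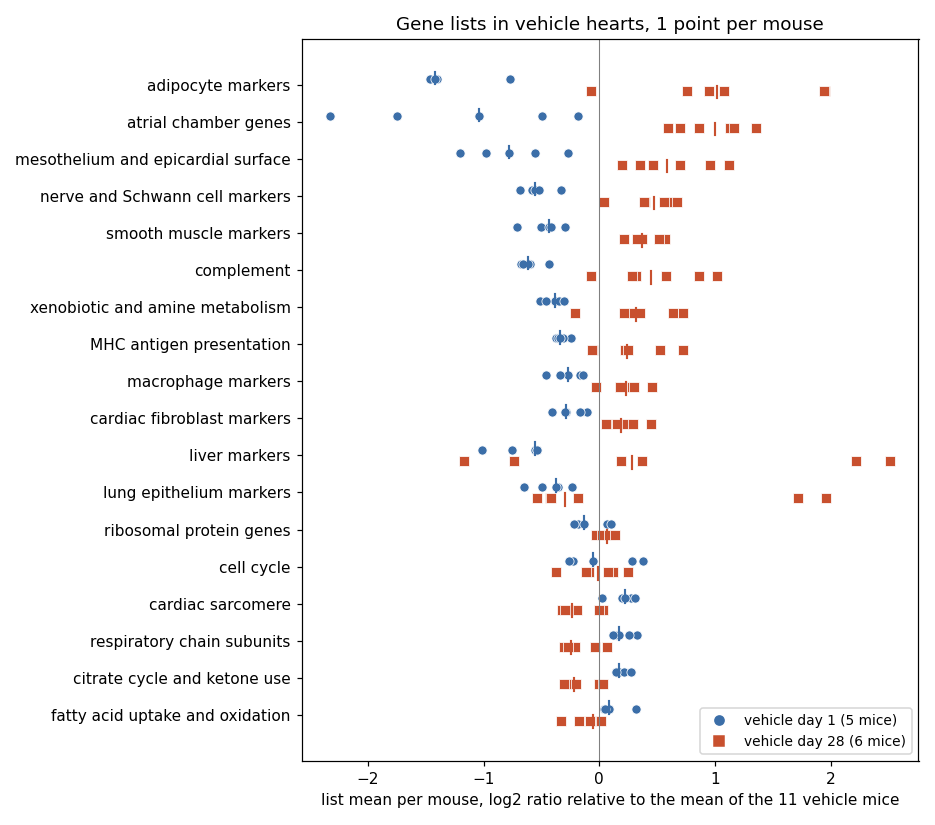
Each point is 1 vehicle mouse: the mean log2 ratio over the measured members of a gene list, relative to the mean of the 11 vehicle mice, with circles for day 1, squares for day 28 and a short line for the group median. The adipocyte, atrial, mesothelial, nerve, smooth muscle, complement, xenobiotic, antigen presentation, macrophage and fibroblast lists separate the 2 groups, higher at day 28. Respiratory chain, citrate cycle and fatty acid lists separate them too, lower at day 28. The liver and lung epithelium lists are high in single day 28 mice.

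Complement, the cascade of plasma proteins that marks particles and cells for removal, is named in the title of the study, which drew it from these mice, so its count is not independent evidence. Of 24 measured members 15 rose and 0 fell (median 0.82). The list shares Cfd with the adipocyte list, C3 with the mesothelium list and the C1q chains with the macrophage list, so these counts overlap. C3, the central component, lay at -1.36, -0.46, -0.99, -0.29 and 0.14 at day 1 and at 2.36, 1.38, 1.33, 2.07, 2.53 and 0.94 at day 28, a rise of 2.36 ± 0.41 (SE; adjusted p = 0.00268) with no overlap. Its other probe, above background on 0 of 5 day 1 arrays, gave 0.58. In the classical pathway the recognition chains C1qb and C1qc rose by 0.68 ± 0.14 and 0.49 ± 0.13, the protease C1ra by 0.88 ± 0.17, C2 by 1.90 ± 0.40 (1.21 on its other probe) and C4b by 1.96 ± 0.39. In the alternative pathway factor B (Cfb) rose by 1.49 ± 0.36, properdin (Cfp), which stabilises its convertase, by 1.03 ± 0.27, and factor D was the Cfd given above. Among the inhibitors Serping1, which blocks C1, rose by 0.76 ± 0.15 and clusterin (Clu) by 0.77 ± 0.16, while the membrane inhibitor Cd59a differed by -0.14 ± 0.0912 (0.16 on its other probe) and did not pass. C2, Cfb, Cfp, Clu, C1qc and Cd59a were named after their values were seen.

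Some members did not pass. Hc (C5) lay at 2.23, 0.16, 0.60, 3.21, 0.34 and 0.10 in the day 28 mice and Mbl2, a mannose-binding lectin, at 2.96, 0.11, 0.98, 3.31, 0.17 and 0.0717, both highest in replicates 1 and 4, where Alb was also highest. Their differences were 0.86 ± 0.41 and 0.80 ± 0.46, and those of factor I (Cfi) and C8g were 1.06 ± 0.40 and 0.40 ± 0.23. These 4 were named after their values were seen. Mean levels of the complement list per mouse ran from -0.68 to -0.43 at day 1 and -0.0746 to 1.01 at day 28. Without the arrays with airway or liver transcripts the median was 0.46, with 0 members called, and C3 differed by 1.81 (adjusted p = 0.0789). The part of the liver transcripts in the list's difference was not tested otherwise. The median was 0.94, 0.88 and 0.70 within the 3 scan days and 0.87, 0.57 and 1.15 within the 3 shared slides. In the scanner software's log ratios Serping1 was -0.28.

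**Figure D4:**
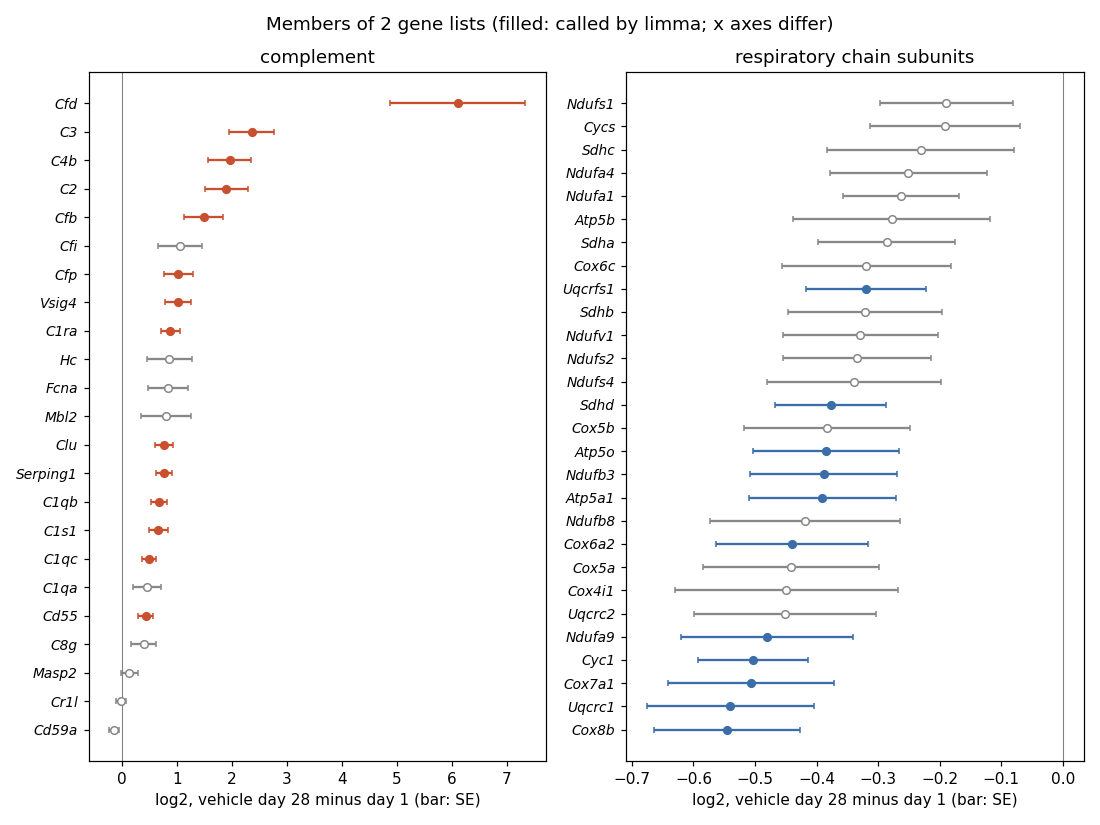
Difference in log2 ratio, vehicle day 28 minus day 1, with its SE for 23 of the 24 complement genes (left) and the 28 respiratory chain genes (right). Filled points were called by limma. Complement members reach 6.11 for Cfd, and every respiratory chain gene lies below 0.

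Macrophage genes were also higher at day 28. Of 18 measured 8 rose, 0 fell and all 18 differences were positive (median 0.47). Lyve1, a hyaluronan receptor of resident macrophages and lymph vessels, lay at 2.21, 2.12, 2.77, 2.70 and 2.12 at day 1 and at 3.55, 3.75, 3.81, 3.90, 4.04 and 3.11 at day 28, and rose by 1.31 ± 0.25 (SE; 0.38 on its other probe). The mannose receptor Mrc1 rose by 0.82 ± 0.20 and Folr2, a folate receptor of resident macrophages, by 0.65 ± 0.15. Folr2 was -0.36 in the scanner software's log ratios. Of 11 antigen presentation genes 7 rose (median 0.56), among them the class II genes H2-Ab1 (0.73 ± 0.16) and H2-DMb1 (0.92 ± 0.22, and 0.0820 on its other probe), the invariant chain Cd74 (0.99 ± 0.23) and beta-2 microglobulin B2m (0.68 ± 0.17). Leaving out the arrays with airway or liver transcripts, the 2 medians were 0.37 and 0.48, with 0 and 0 members called. The macrophage list had 5 calls without day 1 replicate 2 or day 28 replicate 4.

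Among 26 cytokines and chemokines 10 rose and 0 fell (median 0.30). Ccl19, which guides T cells and dendritic cells, lay at 1.48, 1.18, 1.83, 1.07 and 2.08 at day 1 and at 4.00, 4.70, 4.98, 4.60, 4.52 and 3.31 at day 28, a rise of 2.82 ± 0.52 (SE) and 7.08-fold, with 2.04 on its other probe. The macrophage chemokines Ccl6 and Ccl9 rose by 1.39 ± 0.26 and 0.64 ± 0.15, and Il33, an alarm cytokine of tissue cells, by 1.11 ± 0.23. In a list of thymus and lymph node genes Cxcl13, which draws B cells, was above background on 0 of 5 day 1 and 6 of 6 day 28 arrays and was at least 2.91-fold higher (adjusted p = 0.0426, and up to 0.105, without day 28 replicate 5, when 1 mouse was left out). Without that mouse the list of cytokines and chemokines had 6 calls. Neutrophil and B cell lists had 2 and 5 measured members and 0 calls.

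Connective tissue genes rose in part. Of 15 fibroblast markers 6 rose (median 0.43), including Lum, a proteoglycan of collagen fibres (0.83 ± 0.21), Pdgfrl (0.86 ± 0.22), Dpt (0.75 ± 0.19) and the actin-severing protein Gsn (0.82 ± 0.23). Of 23 fibrillar collagen and processing genes 4 rose, while 14 differences were positive and 9 negative (median 0.25). The 4 were Col14a1 (1.42 ± 0.32), the procollagen protease Adamts2 (0.91 ± 0.23) and the procollagen C-endopeptidase enhancers Pcolce (0.67 ± 0.18) and Pcolce2 (0.50 ± 0.13). Of 31 other matrix genes 9 rose, led by fibromodulin Fmod (1.08 ± 0.21), the protease Mmp3 (1.03 ± 0.23) and Fbln1 (1.03 ± 0.24). In that list 23 differences were positive and 8 negative (median 0.31). None of the 3 lists had a call without the arrays with airway or liver transcripts, where the fibroblast median was 0.38. The fibroblast list had 2 calls without day 1 replicate 2 and 3 without day 28 replicate 5.

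In the list of growth hormone, IGF and imprinted growth genes 6 of 16 rose and 1 fell. Igf1, the growth factor itself, rose by 1.09 ± 0.27, and the binding proteins Igfbp5, Igfbp6 and Igfbp4 by 1.75 ± 0.33, 1.14 ± 0.21 and 0.40 ± 0.0920 (SE). The other probe of Igfbp5 gave 0.64. Grb10, an imprinted adaptor that dampens insulin and IGF signalling, fell by 0.38 in log2 ± 0.0700 (adjusted p = 0.00329). Its level was 0.26, 0.00405, 0.15, 0.10 and 0.17 at day 1 and -0.22, -0.28, -0.23, -0.34, -0.24 and -0.17 at day 28, without overlap, and its other probe gave -0.16.

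Enzymes that handle foreign compounds and amines gave 10 rises among 17 (median 0.66). Fmo2, a flavin monooxygenase, lay at 0.91, 1.21, 1.26, 0.54 and 0.78 at day 1 and at 1.90, 2.11, 2.19, 2.43, 2.07 and 1.66 at day 28 and rose by 1.12 ± 0.19 (SE; adjusted p = 0.00268). Inmt, an indole methyltransferase, rose by 0.88 ± 0.16, and Aldh1a2, which makes retinoic acid and is active in epicardium, by 1.22 ± 0.25. Of 22 Nrf2 targets and metallothioneins 3 rose, against 6.92% of all genes, while 10 differences were positive and 12 negative (median -0.00606). Among the 3 was Gpx3, the secreted glutathione peroxidase (1.19 ± 0.23), which was -0.56 (adjusted p = 0.00662) in the scanner software's log ratios. In the liver list 4 of 16 rose (2 without day 1 replicate 2 or day 28 replicate 4), among them Trf, transferrin (1.84 ± 0.46), and Rbp4, the retinol carrier (2.52 ± 0.68), which fat cells also make. Hp, haptoglobin, likewise made by fat as well as liver, rose by 3.15 ± 0.82. It was among 2 rises of 14 acute phase genes, against 6.92% of all genes. In the lung list Cyp2f2 was called higher, above background on 0 of 5 day 1 and 5 of 6 day 28 arrays (adjusted p = 0.0278, and up to 0.0617, without day 28 replicate 1, when 1 mouse was left out). On leaving out the arrays with airway or liver transcripts the liver median was 0.0351 against 1.17, and the lung median -0.0508 against 0.78.

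Genes induced by glucocorticoids and by acute stimuli gave few calls. Of 17 glucocorticoid-induced genes 15 had a positive difference and 4 rose: Cebpd, a transcription factor, by 1.38 ± 0.28 (SE), Errfi1 by 0.86 ± 0.25, Tat, tyrosine aminotransferase, by 0.75 ± 0.23 and the clock gene Per1 by 1.01 ± 0.32. Cebpd lay at -2.0, -1.69, -1.78, -1.69 and -2.36 at day 1 and at -1.55, 0.30, 0.24, -0.60, -0.90 and -0.63 at day 28, where replicate 1 was lowest. Of 25 immediate early genes 20 had a positive difference and 4 rose, with the orphan receptor Nr4a1 at 1.92 ± 0.44, Csrnp1 at 0.84 ± 0.25 (0.10 on its other probe), Klf4 at 0.65 ± 0.18 and Jund at 0.48 ± 0.13. Nr4a1 ran from -2.80 to -1.25 at day 1 and from -1.53 to 0.80 at day 28, and the groups overlapped. Per1 was the 1 call among 16 clock genes, where 6.92% of all genes rose. The glucocorticoid list had 1 or 2 calls without any 1 of the 5 day 1 mice or of day 28 replicates 2, 3 and 4, and the immediate early list 1 without day 1 replicate 2.

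Sarcomere genes of heart muscle were lower at day 28 by small amounts. Of 17 sarcomere genes 7 fell, 0 rose and all 17 differences were negative (median -0.37). Mybpc3, myosin binding protein C, lay at 7.28, 7.52, 7.35, 7.36 and 7.69 at day 1 and at 6.41, 6.92, 7.13, 6.62 and 7.12 in the 5 day 28 mice with a value, a fall of 0.60 in log2 ± 0.16 (SE; adjusted p = 0.0213, and up to 0.0588, without day 28 replicate 5, when 1 mouse was left out) without overlap. Actn2, the Z-disc actinin, differed by -0.35 ± 0.10, Tnni3, the inhibitory troponin, by -0.39 ± 0.12 (5 of 6 day 28 mice with a value) and Myl3, the essential ventricular light chain, by -0.47 ± 0.14 (4 and 5 mice with a value). All 3 were called. Tpm1, tropomyosin, fell on its brightest probe (-0.57 ± 0.17) while its other probe gave 0.58. Actc1, Myl2, Myh6 and Ttn, all between -0.40 and -0.28, did not pass. Spots that the scanner software marked as uneven or outlying have no value.

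The count of sarcomere calls was unsteady: it was 0 without day 28 replicate 5, 1 without replicate 1 or 2 of that day, 2 without day 1 replicate 2 or 4, 3 without day 1 replicate 1 or day 28 replicate 4, and 4 without day 1 replicate 5. Without the arrays with airway or liver transcripts it was 0, with a median of -0.28. The median was -0.12, -0.51 and -0.37 within the 3 scan days and -0.50, -0.00229 and -0.60 within the 3 shared slides.

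The start regions of 3 sarcomere genes are shown, because genes of this list lay lower together and these hold binding motifs of muscle transcription factors. Mybpc3 and Myl3 were called, and Actc1 was not. In the 250 bases before the start, the CArG box bound by serum response factor was found in 4 of 15 sarcomere genes with a promoter in the RefSeq table, Myl3, Actc1, Myom1 and Ldb3 (26.7%), and in 1.62% of all 27025 genes. The MEF2 box was found in Mybpc3, Ttn and Myoz2, 3 of 15 (20.0%), against 0.592% of all genes. Both motifs read alike on either strand, so 1 search covers both. A match describes the letters only. The same windows of the smooth muscle list held 0 CArG boxes in 8 genes. Sequences are from RefSeq on GRCm38.p6, 5′ to 3′ along each gene, with the motif in capitals.
Mybpc3 (chr2:91117894-91118143, plus strand, MEF2 box): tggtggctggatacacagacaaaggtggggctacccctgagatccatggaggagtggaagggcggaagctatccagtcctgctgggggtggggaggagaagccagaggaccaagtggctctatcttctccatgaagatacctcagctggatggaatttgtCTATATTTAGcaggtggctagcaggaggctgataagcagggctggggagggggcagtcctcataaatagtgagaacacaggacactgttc
Myl3 (chr9:110763428-110763677, plus strand, CArG box): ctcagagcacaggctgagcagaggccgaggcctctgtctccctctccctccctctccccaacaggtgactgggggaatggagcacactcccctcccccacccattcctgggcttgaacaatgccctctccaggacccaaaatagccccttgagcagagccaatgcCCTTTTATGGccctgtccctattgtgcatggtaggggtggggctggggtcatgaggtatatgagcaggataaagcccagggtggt
Actc1 (chr2:114052876-114053125, minus strand, CArG box): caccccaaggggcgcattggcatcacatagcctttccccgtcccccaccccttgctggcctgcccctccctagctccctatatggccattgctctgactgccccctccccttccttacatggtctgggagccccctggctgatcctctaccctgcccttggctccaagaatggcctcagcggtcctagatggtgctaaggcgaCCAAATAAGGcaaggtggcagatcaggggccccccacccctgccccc

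Mitochondrial genes were lower in the same hearts. All 28 respiratory chain subunits had a negative difference and 11 fell (median -0.38). Cyc1, cytochrome c1 of complex III, lay at 2.40, 2.41, 2.21, 2.37 and 2.43 at day 1 and at 1.84, 1.86, 2.06, 1.76, 1.77 and 1.87 at day 28, and fell by 0.50 in log2 ± 0.0896 (SE; adjusted p = 0.00311). The groups did not overlap. Uqcrc1 of the same complex fell by 0.54 in log2, Sdhd of complex II by 0.38 and the heart forms of cytochrome oxidase subunits Cox8b and Cox7a1 by 0.55 and 0.51. Cox6a2, Ndufa9, Ndufb3, Atp5a1, Atp5o and Uqcrfs1 were the other calls, named after their values were seen.

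All 17 genes of the citrate cycle and ketone use were also lower, 7 of them called (median -0.32). The succinate ligase subunits Sucla2 and Suclg2 differed by -0.47 ± 0.0899 and -0.53 ± 0.10 (SE, and -0.30 on the other Suclg2 probe), Oxct1, which activates ketone bodies, by -0.56 ± 0.13 and isocitrate dehydrogenase Idh2 by -0.49 ± 0.13. Sucla2 lay at 3.59, 3.76, 3.63, 3.93 and 3.76 at day 1 and at 3.28, 3.25, 3.33, 3.12, 3.25 and 3.39 at day 28, without overlap. Of 31 genes of fatty acid uptake and oxidation 9 fell and 1 rose (median -0.34). Hadha, the alpha chain of the trifunctional protein, lay at 2.39, 2.49, 2.18, 2.64 and 2.36 and then at 1.90, 1.73, 2.11, 1.45, 1.37 and 2.16, a fall of 0.62 in log2 ± 0.13 (adjusted p = 0.0049). Hadh fell by 0.70, the enoyl-CoA isomerases Eci1 and Eci2 by 0.55 and 0.48 and Acadm, which begins the oxidation of medium chains, by 0.44. The member that rose was Ucp2, an uncoupling protein relative (0.59 ± 0.16, and 0.17 on its other probe), named after its value was seen.

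Of 22 glycolysis genes 5 fell and 1 rose. The muscle enzymes Pgam2, Pfkm and Eno3 fell by 0.44, 0.50 and 0.51 in log2, hexokinase Hk2 by 0.42 and Pdha1 by 0.27, while Pgam1, the form of other tissues, rose by 0.44. Of 18 hypoxia-induced genes 5 fell, among them the vessel growth factor Vegfa (-0.58 ± 0.15, and -0.25 and -0.27 on its other probes), Higd1a (-0.45 ± 0.12) and Ankrd37 (-0.39 ± 0.11), while the vasodilator peptide Adm rose by 0.86 ± 0.20. Of 11 calcium handling genes Pln and Asph fell, against 3.46% of all genes.

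These falls were small enough to turn on the scaling of the arrays and on single mice. With median centring in place of loess, which put the median of all genes at 0.13, no gene was called lower, and the medians were -0.11 for the respiratory chain, -0.0528 for the citrate cycle, -0.0804 for fatty acid oxidation and -0.11 for the sarcomere. Glycolysis (0.038) and hypoxia-induced genes (0.0278) then turned positive, although below the median of all genes. The respiratory chain list had 4 calls without day 1 replicate 4, 5 without day 28 replicate 2, 4 or 5, 7 without day 28 replicate 1 and 17 without day 28 replicate 6. The citrate cycle list had 4 without day 28 replicate 2, 4 or 5, the fatty acid list 5 and the hypoxia list 1 without day 28 replicate 4, and the glycolysis list 2 without day 28 replicate 2, 4 or 5. The respiratory chain list had 0 without the arrays with airway or liver transcripts (median -0.24). Only 5 of all genes were called lower in that setting, and none was in the citrate cycle, fatty acid, glycolysis or hypoxia list. The respiratory chain median was -0.26, -0.40 and -0.46 within the 3 scan days and -0.61, -0.14 and -0.41 within the 3 shared slides.

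Every called gene with a symbol that fell did so by less than 2-fold. Slc26a10, an anion transporter relative, lay at 2.93, 2.67, 2.89, 2.60 and 2.34 at day 1 and at 1.70, 2.02, 2.29, 1.37, 1.89 and 1.75 at day 28, and fell by 0.85 in log2 ± 0.17 (SE; adjusted p = 0.00446). Cyfip2, an actin regulator, fell by 0.84, and Kcne1, the beta subunit of the slow delayed rectifier potassium channel, by 0.77. Irx4, the transcription factor of ventricular identity, lay at 3.14, 3.04, 2.73, 2.40 and 2.66 and then at 2.30, 2.15, 2.31, 1.59, 1.95 and 2.15, a fall of 0.72 in log2 ± 0.17. Tbx5, which is active in atria and left ventricle, rose by 1.09 ± 0.34 (adjusted p = 0.0435, and up to 0.121, without day 1 replicate 4, when 1 mouse was left out), but was -0.31 in the scanner software's log ratios. Other falls were those of Slc25a13, the aspartate-glutamate carrier of mitochondria (0.76 in log2), Asph (0.74), the lysine methyltransferase Smyd2 (0.71), Ivns1abp (0.70), Tesc (0.68), the kinase Plk2 (0.67), Fuca2 (0.67), Ppp1r14c (0.67) and Abcc9, a subunit of ATP-sensitive potassium channels (0.66). Groups did not overlap in the genes named here as falling, except in Ivns1abp and Ppp1r14c. Other probes gave -0.0116 and -0.0850 for Asph, -0.45 and -0.20 for Abcc9, and -0.46 and -0.42 for Ivns1abp.

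Genes of clotting, platelets and thyroid response rose in part. Of 17 genes of coagulation and vascular adhesion 5 rose, among them the thrombin receptor F2r (0.79 ± 0.18, SE), the protein C receptor Procr (0.46 ± 0.12), the plasminogen activator Plat (0.36 ± 0.10, and 0.0632 on its other probe) and the adhesion molecule Vcam1 (0.64 ± 0.19, and 0.24 on its other probe, named after its value was seen). Of 10 erythroid and blood genes 3 rose, against 6.92% of all genes, among them Pf4 (0.72 ± 0.18) and Gp9 (0.78 ± 0.21), both of platelets. Of 10 genes of thyroid hormone and nuclear receptor response 4 rose and 6 had a negative difference (median -0.0772). The clotting list had 2 or 3 calls without any 1 of day 1 replicates 1 to 3 or day 28 replicates 2, 4 and 5. Thrsp, a regulator of lipid synthesis, rose by 1.35 ± 0.29, and the oestrogen receptor Esr1, above background on 0 of 5 day 1 arrays, was at least 1.33-fold higher.

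Lymphocyte and interferon lists gave few calls. Of 6 T and NK cell genes the T cell receptor chain Cd3d was at least 1.35-fold higher and the granule protein Nkg7 rose by 0.43 ± 0.11. Of 20 interferon-stimulated genes 2 rose, against 6.92% of all genes, among them Oasl2 (0.61 ± 0.19), with a median of 0.23.

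Several lists gave little. Cell cycle (22 measured), ribosomal protein (28) and skeletal muscle (10) genes had 0 calls, with medians of -0.0773, 0.14 and -0.17. Heat shock chaperones had 1 call of 30, Dnajb1 (0.68 ± 0.18, and -0.0184 on its other probe). Fetal and stress genes of the ventricle had 1 of 14, Tnni1, at least 1.23-fold higher (0.10 in log2 on its other probe). Of 13 cardiac transcription factors 1 rose, Tbx5, and 2 fell, Irx4 and the mitochondrial coactivator Ppargc1a (-0.33 ± 0.0888). Over all genes 6.92% rose and 3.46% fell.

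The same days were then set against each other in nano-TiO2 hearts, which share no array with the vehicle hearts. There limma called 0 of 15504 genes (0%), while 700 had p under 0.05 before adjustment, and the smallest adjusted p was 0.191. The genes called higher in vehicle hearts had a median difference of -0.000722 in nano-TiO2 hearts, and those called lower of -0.0660. Of the 1610 genes, 940 had the same sign, 533 of the 1073 called higher and 407 of the 537 called lower. Adipocyte, atrial, smooth muscle, mesothelial and complement lists had medians of -0.21, -0.0444, -0.18, 0.0938 and -0.0123 there, and the respiratory chain and sarcomere lists -0.0303 and -0.17.

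**Figure D5:**
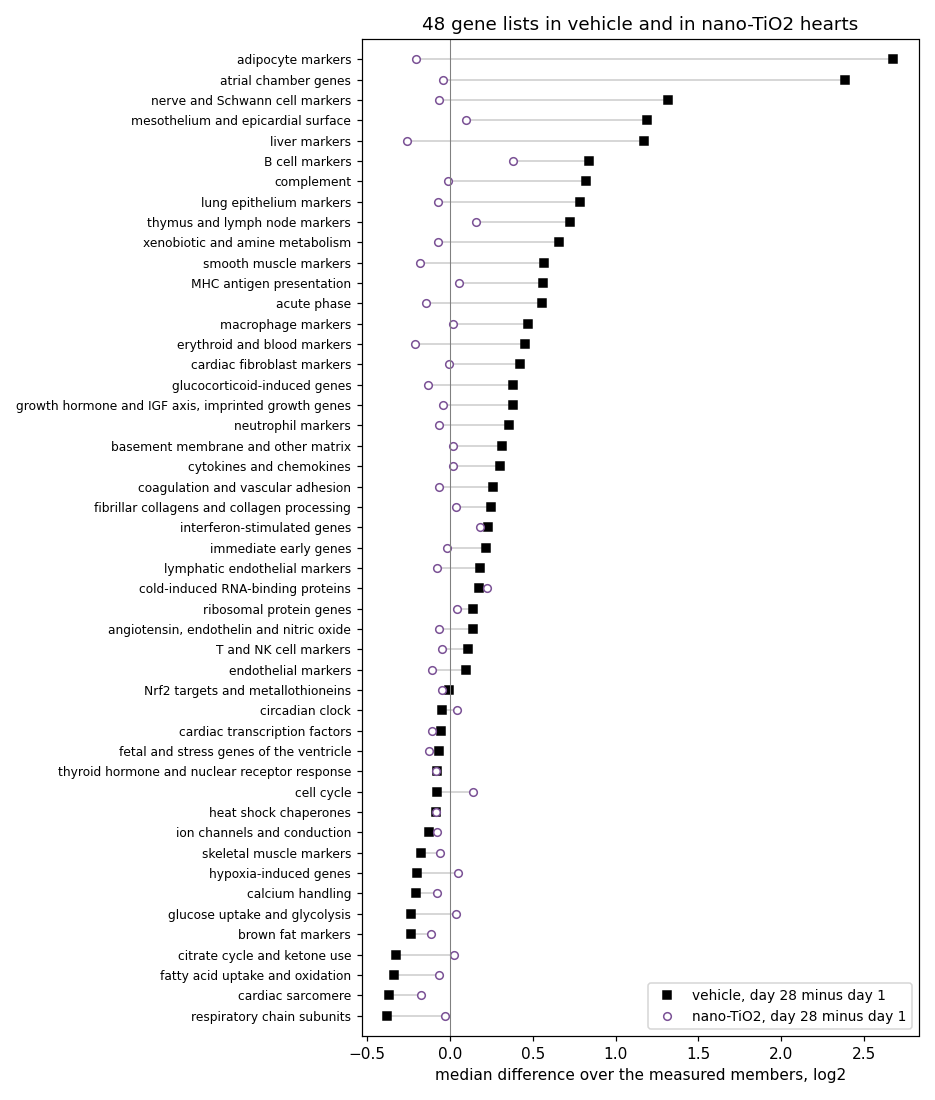
Median difference in log2 ratio, day 28 minus day 1, over the measured members of each of 48 gene lists, with squares for vehicle hearts (6 against 5 mice) and open circles for nano-TiO2 hearts (6 against 5). Vehicle medians run from -0.38 to 2.68, while nano-TiO2 medians run from -0.26 to 0.38.

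Whether the 2 time differences differ was tested directly, and limma called 0 of 15504 genes (0%). Before adjustment 2260 had p under 0.05 (1553 with the larger rise in vehicle hearts and 707 the reverse), and the smallest adjusted p was 0.0726. The count was 6 with scan day as a block, 97 without control day 28 replicate 6, 41 in the scanner software's log ratios and 109 with array weights. The time difference in vehicle hearts is therefore not shown to be particular to them.

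By smallest p on the higher side stood Fmo2, Lmod1, Crip1, Prdm6 and Myh11. Lmod1 had a time difference larger by 2.28 ± 0.43 in log2 (SE; adjusted p = 0.0726) in vehicle hearts, where it was 1.92 ± 0.30 against -0.36 ± 0.30 with nano-TiO2. Crip1, a small LIM protein, differed by 1.25 ± 0.24 and Prdm6, a regulator of smooth muscle genes, had the adjusted p 0.0726 but was above background on 0 of 5 vehicle day 1 arrays. On the lower side stood R3hdm1 (-0.53 ± 0.11), Suclg2 (-0.66 ± 0.15), N4bp3 (-0.53 ± 0.12), Hnrnpc (-0.60 ± 0.14) and Pphln1 (-0.39 ± 0.0963).

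In 4 genes taken as examples the mean levels of both nano-TiO2 groups lay between those of the vehicle groups. Cnn1 had means of -0.0362 ± 0.61 (SD, n = 5) and 3.44 ± 0.40 (SD, n = 6) in vehicle hearts at day 1 and day 28, against 2.28 and 1.93 with nano-TiO2. For C3 they were -0.59 ± 0.59 and 1.77 ± 0.64, against 0.72 and 1.04. For Adipoq they were 0.37 ± 0.91 and 5.16 ± 1.4, against 3.47 and 3.22, and for Cyc1 2.36 ± 0.0902 and 1.86 ± 0.11, against 2.08 and 2.06. These genes were picked after their values were seen, and whether their order is general was not tested.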

How the data were processed

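Heart RNA of 11 vehicle mice, and of 11 nano-TiO2 mice for the spread and for comparison, was measured on Agilent 2-colour arrays, 1 mouse per array, on 9 slides scanned on 3 days. Per the labels, RNA integrity numbers were 7 and above. The deposited scanner files hold median intensities of spots and local background, neither subtracted nor normalized, and a log10 ratio made by Agilent Feature Extraction 10.7.3.1, per the file headers. The submitters' processing notes name version 9.5.3.1. The authors' deposited series matrix gives log2 values by probe, and its method is not given in the sources used here.

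R 4.3.3, limma 3.58.1 and the data.table package (version 1.17.8) were used for the values, and Python 3.11.15, pandas 2.3.3 and matplotlib 3.10.9 for sequences and figures. Background was corrected with normexp (offset 50), fitted without spots marked for an uneven background, and each array was normalized with loess. Marked spots (0.306%) were left out, and 0 spots were saturated. Mean intensities had been planned, but the files hold medians. A probe was kept where at least 5 of the 22 arrays had it well above background in Cy5, which left 19275 of 41174. Of all probes, 23374 matched 16535 symbols through RefSeq accessions. Each of 15504 genes, 10478 of them with a symbol, was read from the brightest of its kept probes by mean Cy5. Pairs of vehicle arrays correlated at r between 0.896 and 0.986. The number of arrays limits the precision.

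limma was fitted with 4 group means on all 22 arrays (18 residual degrees of freedom) and eBayes. A gene was called at a Benjamini-Hochberg adjusted p under 0.05 across the 15504 genes. On simulated data 71 of 100 genes with a log2 change of 0.5 and 96 of 100 with a change of 1 were recovered, with 8 false calls. Named genes were the 15 largest called changes in each direction with a symbol and above background on at least 6 of 11 vehicle arrays, the 4 members of each of 48 lists with the smallest p, 8 genes that check the tissue, and the 5 smallest p in each direction for the difference from nano-TiO2. The text says where a gene was named otherwise, and a few genes that the rule picked are not reported here. The groups, lists and members were chosen with earlier results of these data known. Alternatives were other background corrections, normalizations, filters, probe summaries and eBayes settings, slide or scan day as a block, and leaving out mice.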

Additional observations from a re-analysis of the deposited data

Results flagged for a closer look

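Of 384 groups of mice looked at, 1 for each named gene and day, 18 held a mouse that stood apart from the rest of its group by Dixon's criterion, which chance alone passes in about 1 of 20 groups. The total is therefore close to what chance alone gives, and the cases are listed for description only. Day 1 replicate 5 was the mouse most often picked. Its fat cell genes lay above those of the other day 1 mice, at 5.04 in log2 for Cfd, 1.98 for Adipoq, 2.01 for Cidec and 1.92 for Car3. It was also highest for Ece1 (1.49) and lowest for Folr2 (2.14), Cyfip2 (1.47) and C8g (0.0254). Without it the adipocyte median difference was 2.76 in place of 2.68.

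Muscle and mitochondrial genes, which are also frequent among the named genes, held most of the other cases. Day 1 replicate 3 was lowest of its group for Cyc1 (2.21) and Actc1 (5.50), and day 1 replicate 4 was highest for Eci2 (2.13) and lowest for Ttn (6.62). Day 28 replicate 6 was highest for Eno3 (4.74), Ndufa9 (3.27) and Atp5o (3.23), and day 28 replicate 3 for Cyc1 (2.06). Mylk was lowest in day 1 replicate 2 (-0.0412), and Fmod was highest in day 28 replicate 4 (0.81).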

How the results depend on the processing

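The counts of calls moved more than the directions. The 1610 calls (1073 higher, 537 lower) were 78, 72 and 6 with normexp fitted on all spots, where the 6 lower were Psme4, Grb10, Hnrnpc, Plec, N4bp3 and Cyc1. They were 3865, 1827 and 2038 in the scanner software's log ratios and 87, 87 and 0 with median centring. Cy5 alone gave 855 lower calls. Array weights gave 2713, 1676 and 1037. Slide as a fixed block gave 0, 0 and 0 (2807 unadjusted). Leaving out the arrays with airway or liver transcripts gave 32, 27 and 5, the 5 lower being Hnrnpc, St8sia4, N4bp3, Tspan13 and a clone. Without those low in atrial transcripts they were 242, 198 and 44. Without both sets they were 2, 1 and 1, Cebpd (2.02) and Nfil3 (-1.34). Leaving out 1 mouse at a time gave 948 to 2068 calls, 650 to 1373 higher and 246 to 695 lower, with the lowest total without day 1 replicate 2 and the highest without day 28 replicate 6. The difference between vehicle and nano-TiO2 hearts gave 6 calls with scan day as a block and 0 to 97 with 1 mouse left out, 97 without day 28 replicate 6. Under the remaining alternatives for background, filters, probes and eBayes the total of 1610 moved by less than 1.5 times. Of the 1610 genes, 1601 kept their sign in the scanner software's log ratios and 1588 with median centring. The genes were called on these same arrays, so signs that stay are not independent evidence of direction. Here and below the cause was not tested.

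Some named genes turned sign. With plain subtraction Tbx5 was -0.16, Folr2 -0.00815, Serping1 -0.15, Gpx3 -0.34, Nppa -0.0802, Lipe -0.10, Cidea -0.43, Mbl2 -0.53 and Alb -1.66. In the scanner software's log ratios Tbx5 was -0.31, Folr2 -0.36, Serping1 -0.28, Gpx3 -0.56, Nppa -0.0187, Cidea -0.42, C1qc -0.0517 and Alb -1.98. Nppa was -0.0458 in the series matrix, -0.0710 with scaling between arrays, -0.00719 with slide as a block, -0.00337 without the arrays low in atrial transcripts, and -0.0654 to -0.0116 without day 1 replicate 3 or 4 or day 28 replicate 6. Cd59a was 0.13 with median centring and 0.0108 as a mean of probes, where Tpm1 was 0.00559, and Fabp4 was -0.0395 with scaling. Alb ran from -0.0393 to 1.03 with 1 mouse left out, and was -0.0220 and -0.0393 without day 28 replicate 1 or 4. With the airway or liver arrays left out Alb was -1.02, Scgb1a1 -0.0487, Fabp4 -0.13, C8g -0.0537 and Mbl2 -0.0825. Without both sets Alb was -0.73, Fabp4 -0.12 and C8g -0.0348. No paired analysis was possible because the labels give each mouse its own number and no number shared between the groups. Signal over background limits the low genes: 95 of the genes called higher were above background on 0 of 5 day 1 arrays.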
